A study of Mus musculus with 60 samples.

Results

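Complement is described here through 9 genes of the mouse hippocampus, chosen by name as components, receptors and regulators of the cascade. They are C1qa, C1qb and C1qc, C4b, C3, the receptors C3ar1 and C5ar1, and the regulators Serping1 and Cd59a, which make up 9 of the 35976 genes in the count table. Total RNA of bulk hippocampus was sequenced after ribosomal RNA depletion from NLGF and wild-type (WT) mice at weeks 3, 8 and 24. Each genotype and week held 10 libraries, 5 from females and 5 from males, so that 60 libraries were compared. NLGF is written APP-nlgf in the sample labels and AppNL-G-F in the design text. It is a knock-in line in which the mouse's own App gene carries familial Alzheimer's disease mutations, so that App is driven by its own promoter and not by a transgene. The labels do not give the zygosity, the background strain or a control line other than WT. The design text calls both sexes together biological replicates and gives no animal identifiers, so the p-values below measure the spread between these libraries. The question set by the design was how the genotypes differ at each age, with sex as a covariate.

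Complement is a cascade of secreted proteins that marks particles, debris and synapses for removal. In the classical pathway the hexamer C1q, made of A, B and C chains, binds its target and leads to cleavage of C4 and then of C3. Fragments of C3 coat the target and are read by integrin receptors, and the small fragments C3a and C5a signal through C3ar1 and C5ar1. C1 inhibitor, the product of Serping1, and CD59, which blocks the membrane attack complex, hold the cascade in check. In the brain, microglia make most C1q, and C4 is made largely by astrocytes and other glia.

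Levels are given as CPM, counts per M library counts after TMM scaling of the totals. A gene was called where edgeR's quasi-likelihood test gave a Benjamini-Hochberg adjusted p under 0.05 over all genes tested. The median library held 26.1 M counts and the range was 17.8 to 73.4 M. The week 3 NLGF set was uneven, since 7 of its libraries held 54 to 73.4 M counts and the other 3 held 19.5 to 34 M, against 17.8 to 31.8 M in the 10 WT libraries of that week. No WT library was of the deep kind. NLGF week 3 male 2, one of the deep libraries, carries a sex label that its counts contradict, and NLGF week 8 female 1 has an age field of 3 weeks that its title contradicts. Neuronal markers of the hippocampus were present, with median levels of 153 CPM for Prox1 of the dentate gyrus and 1440 CPM for Slc17a7 of excitatory neurons. Choroid plexus markers, which are not hippocampal, summed to 30.9 to 10700 CPM in the 20 libraries of week 24. In bulk tissue, more cells of a type and more RNA per cell cannot be told apart.

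The 3 C1q genes lie next to each other on chromosome 4 of mm10, all on the minus strand, with C1qb at 136880129 to 136886187, C1qc at 136889804 to 136893065 and C1qa at 136895917 to 136898803. C3 (57203970 to 57228136) and C4b (34728380 to 34743882) are on chromosome 17, C3ar1 on chromosome 6 (122847138 to 122856161), C5ar1 on chromosome 7 (16246743 to 16259540), and Serping1 (84765387 to 84775444) and Cd59a (104095801 to 104115354) on chromosome 2. No other annotated gene covered exon bases of any of the 9, although a microRNA gene, Mir6978, lies in an intron of C3. The near copy C4a shares 22.7% of the 75-base stretches of C4b, so part of the reads of C4b could be placed at C4a or left out, and C4b values carry that uncertainty. C4a itself stood at 0.349 ± 0.123 CPM in NLGF libraries of week 24 and 0.421 ± 0.226 CPM in WT libraries (SD, n = 10 each). Cd59a shares 1.66% with Cd59b.

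The promoters of the 3 called C1q and receptor genes for which a window was given, and of C3, the central component, are shown because these genes are compared for a shared change below. RefSeq windows on GRCm38.p6 cover 250 bases before to 50 bases after the start used for the window, 5′ to 3′ on the strand of the gene. Capitals mark a motif match. The start used need not be the end of the gene span given above. For C1qc it lies inside that span, so part of its upstream bases fall within the gene as placed above. Of the 9 genes 6 had such a window.
C1qb, chr4:136886151-136886450, minus strand: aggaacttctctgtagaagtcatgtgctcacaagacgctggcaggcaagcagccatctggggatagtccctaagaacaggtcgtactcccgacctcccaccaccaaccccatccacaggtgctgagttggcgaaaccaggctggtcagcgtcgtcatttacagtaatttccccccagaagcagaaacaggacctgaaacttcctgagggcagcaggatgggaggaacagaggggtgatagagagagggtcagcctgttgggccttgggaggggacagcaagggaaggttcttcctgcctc
C1qc, chr4:136892865-136893164, minus strand: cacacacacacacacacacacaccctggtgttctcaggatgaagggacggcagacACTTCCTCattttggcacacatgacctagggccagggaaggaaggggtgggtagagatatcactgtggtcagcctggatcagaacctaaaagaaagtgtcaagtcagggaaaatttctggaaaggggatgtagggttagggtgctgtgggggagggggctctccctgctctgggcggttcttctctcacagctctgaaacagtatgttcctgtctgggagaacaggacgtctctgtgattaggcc
C3ar1, chr6:122856108-122856407, minus strand: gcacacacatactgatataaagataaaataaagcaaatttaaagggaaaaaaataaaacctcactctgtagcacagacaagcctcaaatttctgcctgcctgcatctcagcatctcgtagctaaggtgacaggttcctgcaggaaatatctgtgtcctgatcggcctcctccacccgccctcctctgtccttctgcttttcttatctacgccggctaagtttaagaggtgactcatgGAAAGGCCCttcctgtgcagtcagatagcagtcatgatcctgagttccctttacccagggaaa
C3, chr17:57228087-57228386, minus strand: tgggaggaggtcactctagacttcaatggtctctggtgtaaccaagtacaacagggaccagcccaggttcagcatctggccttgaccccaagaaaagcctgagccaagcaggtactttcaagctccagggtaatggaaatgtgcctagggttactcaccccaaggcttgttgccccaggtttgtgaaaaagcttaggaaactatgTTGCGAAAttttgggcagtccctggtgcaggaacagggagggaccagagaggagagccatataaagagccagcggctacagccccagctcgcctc
The motifs searched on both strands were GAGGAAGT for PU.1, GAANNGAAA for IRF factors, TTCNNNGAA for STAT factors, TTGCNNAA for C/EBP and GGGNNTTTC for NF-kB. C1qc held the PU.1 letters at position -195, C3 the C/EBP letters at -45 and C3ar1 the NF-kB letters at -13. Each position is counted from the start used for the window. None of the 5 motifs was found in the windows of C1qb, C5ar1 and Cd59a. Of 32851 windows in the same table, 3.2% held the PU.1 letters, 10.8% the C/EBP letters, 4.36% the NF-kB letters, 7.52% the IRF letters and 8.3% the STAT letters. C1qa and C4b had no window, so of the called genes only C1qb, C1qc and C3ar1 could be compared. They shared no exact match, and looser matches were not searched.

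**Figure D1:**
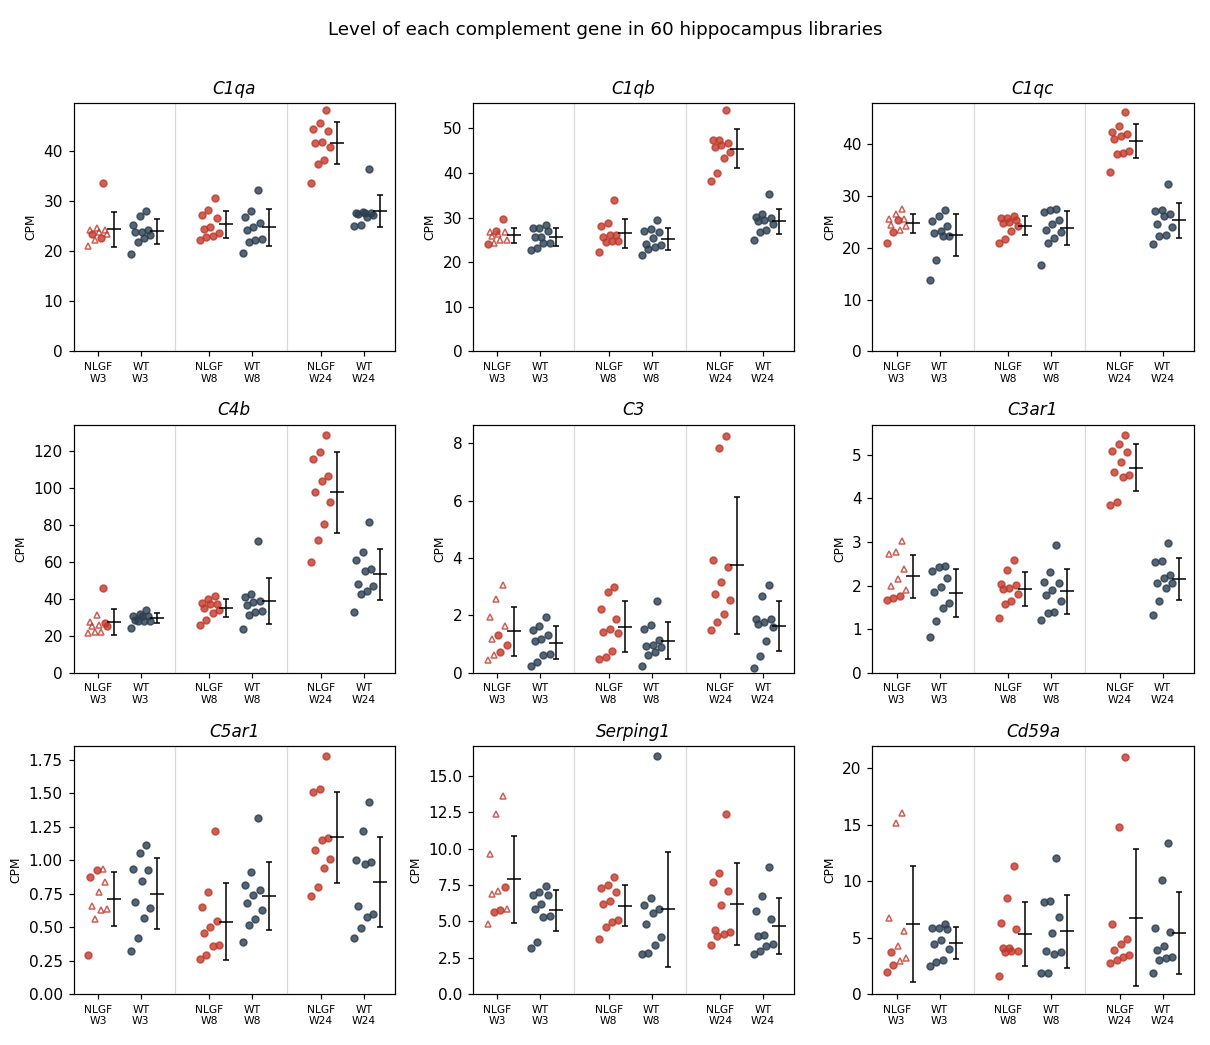
Level of each of the 9 genes in CPM (linear axis) in every library, by genotype and week (W3, W8, W24), with NLGF left of WT and the mean ± SD beside each set of 10. Open triangles are the 7 deep NLGF libraries of week 3. The NLGF libraries of week 24 stand above every WT library of that week in C1qb, C1qc and C3ar1.

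At week 24 the 3 C1q chains, C4b and the C3a receptor were higher in NLGF hippocampus, while C3, C5ar1 and the regulators were not called. Called higher were 5 of the 9 genes (C1qa, C1qb, C1qc, C4b and C3ar1), against 0.8% of all 16508 genes tested. The fold change was positive in 9 of 9, with a median of 0.64 on the log2 scale, against -0.00 over all genes tested. Of all genes with a level in the 60 libraries, 0.287% (51 of 17752) stood higher in every NLGF than in every WT library of week 24, and 3 of the 9 complement genes were among them.

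C1qa, the A chain of C1q, had 33.6, 41.7 and 48 CPM as lowest, median and highest value in the NLGF libraries of week 24, and 25, 27.5 and 36.4 CPM in the WT libraries. Of the 10 NLGF libraries 9 lay above every WT library, and the WT library with 36.4 CPM stood apart from its group. The log2 fold change was 0.58 ± 0.0655 (SE), with an adjusted p of 1.07e-05 by edgeR's quasi-likelihood test. C1qb, the B chain, had 38.2, 46.1 and 54 CPM in NLGF libraries and 24.9, 29.3 and 35.4 CPM in WT libraries. The groups did not overlap, and the log2 fold change was 0.64 ± 0.0602 (adjusted p = 7.14e-07). For the C chain, C1qc, the NLGF libraries had 34.6, 41.3 and 46.3 CPM and the WT libraries 20.6, 25.4 and 32.4 CPM, again without overlap. Its log2 fold change was 0.68 ± 0.0668 (adjusted p = 1.03e-06). The 3 chains thus differed by similar amounts, with ratios of the group means of 1.49, 1.55 and 1.6 for C1qa, C1qb and C1qc, and the coefficients of variation among NLGF libraries were 10.3%, 9.58% and 8.18%.

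C4b, the fourth component that C1 cleaves, had 59.9, 101 and 129 CPM as lowest, median and highest value in NLGF libraries of week 24 and 32.5, 51.4 and 81.6 CPM in WT libraries. All 10 NLGF libraries lay above the WT median, and 7 of 10 above every WT library. The log2 fold change was 0.88 ± 0.154, with an adjusted p of 0.00347. C4b was the most variable of the 5 called genes, with a coefficient of variation of 22.3% among NLGF libraries. By CPM it was also the most abundant of the 9, but its transcript is longer than those of the C1q chains. Per length of exon, C4b stood at 17.1 ± 3.82 RPKM in NLGF and 9.35 ± 2.42 RPKM in WT libraries, C1qb at 41.7 ± 4 and 26.9 ± 2.59 RPKM, and C1qc at 21 ± 1.72 and 13.1 ± 1.73 RPKM (mean ± SD, n = 10 each).

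C3, on which all pathways converge, was much scarcer, with 1.5, 2.95 and 8.24 CPM in NLGF libraries of week 24 and 0.153, 1.74 and 3.06 CPM in WT libraries. The groups overlapped, and 5 of the 10 NLGF libraries exceeded every WT library. NLGF male 4 with 8.24 CPM and NLGF female 3 with 7.82 CPM stood well above the next NLGF library at 3.93 CPM. Female 3 held the most choroid plexus marker RNA of its set (10700 CPM) and male 4 ranked 8 of 10 (360 CPM). Over the 53 libraries outside the deep ones, the deviation of C3 from its group mean correlated with that of the choroid plexus sum at 0.55, and the part of choroid plexus RNA in the C3 values was not tested. The log2 fold change of 1.22 ± 0.38 was the largest of the 9 genes, but it did not pass the test over all genes (adjusted p = 0.236). Over the 20 fits that each left out a library, it ranged from 0.94 to 1.41.

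C3ar1, the receptor of the C3a fragment, had 3.85, 4.73 and 5.46 CPM in NLGF libraries of week 24 and 1.32, 2.12 and 2.98 CPM in WT libraries. The groups were separated by a wide gap, and the log2 fold change was 1.13 ± 0.116 (adjusted p = 2.2e-06). C5ar1, the receptor of C5a, stood near 1 CPM, with 0.731, 1.11 and 1.78 CPM in NLGF and 0.42, 0.814 and 1.43 CPM in WT libraries. The groups overlapped, only 3 NLGF libraries exceeding every WT library. Its log2 fold change was 0.47 ± 0.221 (adjusted p = 0.532).

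The regulators were not called. Serping1, which encodes C1 inhibitor, had 3.34, 5.28 and 12.4 CPM in NLGF and 2.73, 4.04 and 8.72 CPM in WT libraries of week 24, with a log2 fold change of 0.40 ± 0.251 (adjusted p = 0.677). Cd59a, which encodes an anchored inhibitor of the membrane attack complex, had 2.75, 4.16 and 21 CPM in NLGF and 1.82, 4.05 and 13.3 CPM in WT libraries. Both sets overlapped broadly, and the medians of Cd59a were nearly the same although its highest NLGF library reached 21 CPM. Its log2 fold change was 0.16 ± 0.404 (adjusted p = 0.926), and it was -0.10 without the NLGF library at 21 CPM (female 3).

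The authors' deposited table of called genes lists the same 5 genes at week 24 and none of the 9 at week 3 or 8. In the authors' deposited table the log2 fold changes of NLGF over WT are 0.56 for C1qa, 0.63 for C1qb, 0.67 for C1qc, 1.07 for C3ar1 and 0.81 for C4b, and the largest of their adjusted p-values, that of C4b, is 1.59e-07.

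**Figure D2:**
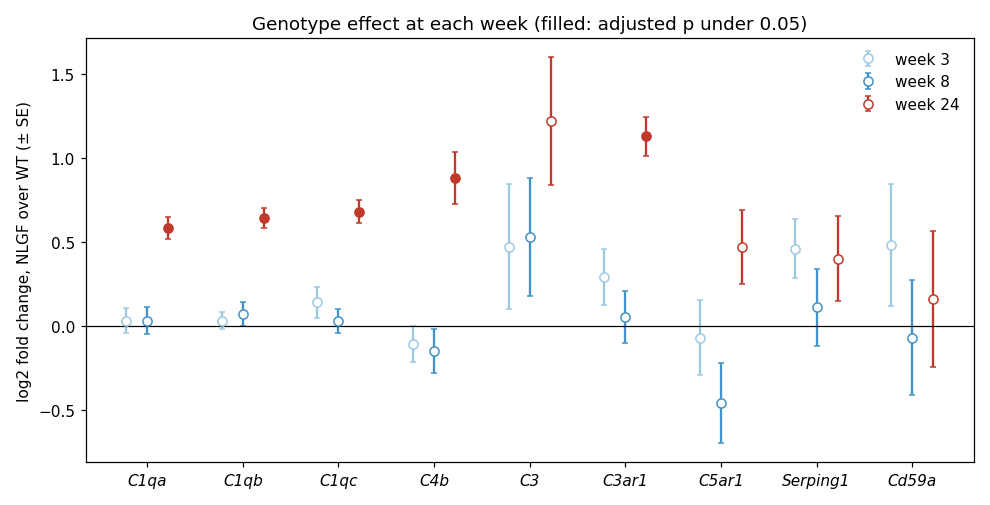
Log2 fold change of NLGF over WT (y axis) with its SE for each of the 9 genes at weeks 3, 8 and 24, with filled points where the adjusted p was under 0.05. At weeks 3 and 8 no gene has a filled point, and at week 24 the C1q genes, C4b and C3ar1 do.

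At week 3, 0 of the 9 genes were called by edgeR, and 0 by DESeq2, in a comparison that called 3.78% of all genes. The log2 fold changes lay between -0.11 and 0.48, with a median of 0.14 against 0.01 over all genes tested, and 1 gene had an unadjusted p under 0.05. That gene was Serping1, with 4.85, 6.96 and 13.6 CPM in NLGF and 3.18, 6.01 and 7.45 CPM in WT libraries, and a log2 fold change of 0.46 ± 0.177 (adjusted p = 0.127). Several genes differed between the deep libraries and the other 3. Cd59a averaged 7.69 ± 5.56 CPM in the 7 deep NLGF libraries, 2.73 ± 0.899 CPM in the other 3 NLGF libraries and 4.53 ± 1.39 CPM in the 10 WT libraries. Its log2 fold change was 0.48 ± 0.363 over all libraries and -0.66 without the deep ones. C3ar1 averaged 2.42 ± 0.429 CPM in the deep NLGF libraries, 1.71 ± 0.0464 CPM in the other 3 and 1.83 ± 0.555 CPM in WT libraries, and its log2 fold change of 0.29 ± 0.167 became -0.01 without the deep libraries. C4b had 21.5, 25.5 and 45.9 CPM in NLGF and 24.2, 29.4 and 33.8 CPM in WT libraries, with a log2 fold change of -0.11 ± 0.108 (adjusted p = 0.572) that was 0.16 without the deep libraries. The 3 NLGF libraries left in that fit had 25.2, 26.7 and 45.9 CPM of C4b, the last being male 1. With the deep libraries alone C4b was called lower (log2 fold change -0.24, adjusted p = 0.0428). Library kind and genotype cannot be told apart in that comparison.

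At week 8, 0 of the 9 genes were called by edgeR, and 0 by DESeq2, and so were 0% of all genes. Over all genes 1292 had an unadjusted p under 0.05 and DESeq2 called 1. No complement gene had an unadjusted p under 0.05, and the log2 fold changes lay between -0.46 and 0.53 with a median of 0.03. The 3 C1q genes had ratios of group means from 1.02 to 1.05. C4b averaged 34.9 ± 4.85 CPM in NLGF and 38.9 ± 12.5 CPM in WT libraries (SD, n = 10 each), and a single WT library, female 1, reached 71.1 CPM. The extremes were the scarce genes, C5ar1 at -0.46 ± 0.239 (adjusted p = 0.635) and C3 at 0.53 ± 0.35 (adjusted p = 0.679). C5ar1 had 0.26, 0.478 and 1.22 CPM in NLGF and 0.391, 0.711 and 1.32 CPM in WT libraries. C3 had 0.487, 1.47 and 3 CPM in NLGF and 0.247, 0.939 and 2.48 CPM in WT libraries.

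Whether the NLGF effect itself grew with age was tested by an interaction over all 60 libraries. From week 8 to week 24 the effect was larger for 5 of the 9 genes, in a test that called 0.31% of all genes in that direction. The log2 difference was 0.54 ± 0.105 for C1qa (adjusted p = 0.00214), 0.56 ± 0.0833 for C1qb (adjusted p = 1.32e-05), 0.65 ± 0.112 for C1qc (adjusted p = 0.000325), 1.03 ± 0.195 for C4b (adjusted p = 0.00159) and 1.08 ± 0.206 for C3ar1 (adjusted p = 0.00159). For C5ar1 it was 0.94 ± 0.327, which did not pass the test over all genes (adjusted p = 0.663). Between weeks 3 and 24 the same 5 genes were called, against 0.901% of all genes, with differences from 0.55 for C1qa and C1qc to 0.85 for C3ar1 and 0.99 for C4b and adjusted p-values from 1.34e-06 for C1qb to 0.0194 for C3ar1. Without the deep libraries of week 3 only C1qb of the 9 was still called, and the difference was 0.40 for C1qa, 0.63 for C1qc, 0.72 for C4b and 1.14 for C3ar1. That fit held 3 NLGF libraries of week 3. Male 1 among these was the highest of its set in C1qa (33.6 CPM), C1qb (29.7 CPM) and C4b (45.9 CPM). The comparison with week 8 rests on no deep library for its contrast, and the same 5 genes were called there without them. Between weeks 3 and 8, 0 of the 9 genes were called by edgeR or DESeq2 and 0 had an unadjusted p under 0.05, against 0.18% of all genes called.

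In WT mice 0 of the 9 genes were called between neighbouring ages. From week 3 to week 8 the log2 fold changes lay between -0.03 and 0.39, in a comparison that called 7.14% of all genes, and 1 complement gene had an unadjusted p under 0.05 (0 called by DESeq2). That gene was C4b, with 38.9 ± 12.5 CPM in WT week 8 and 29.4 ± 2.63 CPM in WT week 3 libraries (log2 fold change 0.39 ± 0.14, adjusted p = 0.0882). From week 8 to week 24 they lay between -0.29 and 0.53, against 0.279% of all genes called, and 3 complement genes had an unadjusted p under 0.05 (0 called by DESeq2). C4b averaged 53.2 ± 13.8 CPM in WT week 24 libraries (0.46 ± 0.139 over week 8, adjusted p = 0.187). WT week 24 was not compared with WT week 3 in a test, and C4b had 32.5, 51.4 and 81.6 CPM as lowest, median and highest value in WT week 24 libraries and 24.2, 29.4 and 33.8 CPM in WT week 3 libraries. The step from week 8 to week 24 passed the test for C4b when WT week 8 female 1 was left out (log2 fold change 0.59, adjusted p = 0.0239), and the step from week 3 to week 8 when WT week 8 female 5 was (0.46, adjusted p = 0.03). C1qb averaged 29.2 ± 2.81 CPM in WT week 24 and 25.2 ± 2.43 CPM in WT week 8 libraries (0.21 ± 0.0622, adjusted p = 0.166).

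In NLGF mice 6 of the 9 genes were called higher at week 24 than at week 8, against 1.83% of all genes. The log2 fold changes were 0.71 for C1qa, 0.78 for C1qb, 0.75 for C1qc, 1.30 for C3ar1 and 1.48 ± 0.122 for C4b, with adjusted p-values from 3.29e-09 for C1qc to 2.85e-07 for C1qa. C4b averaged 97.5 ± 21.8 CPM in NLGF week 24 and 34.9 ± 4.85 CPM in NLGF week 8 libraries. The sixth gene was C5ar1, at 1.17 ± 0.339 CPM in NLGF week 24 and 0.541 ± 0.285 CPM in NLGF week 8 libraries (log2 fold change 1.12 ± 0.237, adjusted p = 0.00866). For C5ar1 the NLGF week 8 mean was the lowest of the 6 sets of genotype and week, and NLGF week 3 stood at 0.711 ± 0.199 CPM. For C3 the change was 1.21 ± 0.367 (adjusted p = 0.0904). It passed with DESeq2 (1.22, adjusted p = 0.0382).

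Ranked over the 6 sets of genotype and week, NLGF week 24 had the highest mean for 8 of the 9 genes, the exception being Serping1, which was highest in NLGF week 3. For C1qa, C1qb, C1qc, C4b and C3ar1 the gap to the next set exceeded the larger SD of the 2. For the C1q genes no other neighbouring sets in the order were that far apart. C4b was the only one of the 9 with a second such step at the top, since WT week 24 (53.2 ± 13.8 CPM) also lay above WT week 8 (38.9 ± 12.5 CPM) by more than the larger SD, and NLGF week 8 (34.9 ± 4.85 CPM) above WT week 3 (29.4 ± 2.63 CPM) likewise. For C3, C5ar1, Serping1 and Cd59a no gap between neighbouring sets exceeded the larger SD.

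Sex was the study's covariate. Over all weeks 0 of the 9 genes were called in males over females by edgeR or DESeq2, none had an unadjusted p under 0.05, and the log2 fold changes lay between -0.30 and 0.09, against 0.101% of all genes called. The difference in genotype effect between males and females at week 24 was called for 0 of the 9 genes by either tool and for 0% of all genes (486 at an unadjusted p under 0.05), with values from -1.32 for Cd59a to 0.62. Each sex alone gave 3 called genes of the 9 in males, where 37 of all 16643 genes tested were called, and 5 in females, where 44 of 16644 were. C4b averaged 96.6 ± 29.7 CPM in NLGF males and 49.8 ± 18.7 CPM in WT males, and 98.4 ± 13.4 CPM in NLGF females and 56.7 ± 6.98 CPM in WT females (SD, n = 5 each). Its effect in males alone (0.96, adjusted p = 0.614) was not smaller than in females alone (0.80, adjusted p = 0.00543), while its SDs were over those of the females. C3ar1 had a log2 fold change of 1.04 in males alone (adjusted p = 0.0546) and 1.23 in females alone (adjusted p = 0.00141).

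The rest of the cascade was followed through 52 complement genes grouped by role, 37 of which passed the filter on low counts at week 24. Of these, 8 were called higher, against 0.8% of all 16508 genes tested, and 0 lower. The 8 include the 5 called genes described above. The median log2 fold change was 0.15 against -0.00 over all genes tested. Among 11 tested genes of classical and lectin initiation, C1qa, C1qb, C1qc and C4b rose and the others, such as C1ra and C1s1 of the C1 proteases, C2 and Masp1, were not called. Among 9 tested receptors 4 rose, which are C3ar1 and all 3 chains of the integrin receptors CR3 and CR4 for C3 fragments. Itgax, the alpha chain of CR4, had 3.62, 4.7 and 5.28 CPM in NLGF and 0.0764, 0.281 and 0.614 CPM in WT libraries, without overlap (log2 fold change 3.89 ± 0.195, adjusted p = 4.68e-11). Itgb2, the beta chain they share, averaged 9.07 ± 0.985 CPM in NLGF and 5.41 ± 0.488 CPM in WT libraries (0.75 ± 0.0634, adjusted p = 1.2e-07). Itgam, the alpha chain of CR3, averaged 32.9 ± 3.57 CPM in NLGF and 27 ± 3.1 CPM in WT libraries, a smaller change (0.29 ± 0.0613, adjusted p = 0.0179).

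Nothing was called at week 24 among 3 tested genes of the alternative pathway and C3, 13 tested regulators and the 1 tested terminal component, C8g. The other terminal components did not pass the filter. Among the uncalled genes with the smallest p-values were C3 and Cd46, a membrane cofactor protein (2.55 ± 0.616 CPM in NLGF and 2.07 ± 0.553 CPM in WT libraries, log2 fold change 0.31 ± 0.138, adjusted p = 0.515). For the change of the genotype effect from week 8 to week 24, 7 of 39 tested complement genes were called higher, against 0.31% of all genes. They were the 5 above with Itgax (3.99) and Itgb2 (0.65). At weeks 3 and 8 none of the complement genes tested was called, against 3.78% and 0% of all genes. Cd93, a membrane protein once described as a C1q receptor, was called with age in both genotypes and with genotype at no week. It averaged 10.6 ± 1.59 CPM in NLGF week 24 and 15.3 ± 1.28 CPM in NLGF week 8 libraries, and 10.3 ± 1.27 CPM in WT week 24 and 15.1 ± 2.25 CPM in WT week 8 libraries. The change from week 8 to week 24 was called in both, at -0.53 in NLGF and -0.55 in WT mice on the log2 scale.

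**Figure D3:**
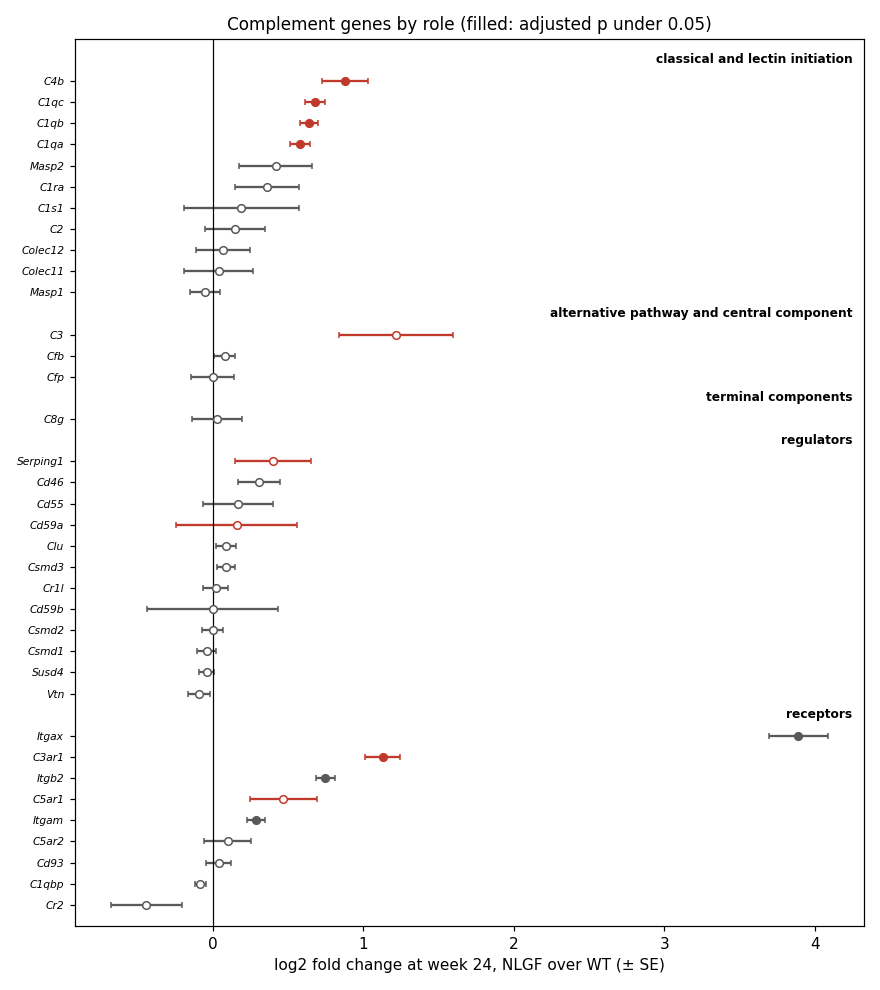
Log2 fold change of NLGF over WT at week 24 (x axis) with its SE for 36 complement genes that passed the filter, grouped by role, with the 9 described genes in red, other genes in grey and called genes filled. The filled points are C1qa, C1qb, C1qc and C4b among initiation genes and Itgax, C3ar1, Itgb2 and Itgam among receptors.

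Microglial markers moved with the C1q genes. The 12 microglia markers, none of which was at 0, summed to 438 CPM (378 to 474) in NLGF and 343 CPM (325 to 379) in WT libraries of week 24. Of the 12, 8 were called higher, against 0.8% of all genes tested. Cx3cr1 at 0.36 (adjusted p = 1.65e-05) was among them, and P2ry12 at 0.11 and Tmem119 at 0.08 were among those not called. The median over the 12 was 0.37, against 0.64 over the 9 complement genes, both on the log2 scale. Set against this sum, the 3 C1q genes together came to 29.1% (26.1 to 31.7%) in NLGF and 24% (21.2 to 27.5%) in WT libraries of week 24, to 22.8% and 22.9% at week 8, and to 20.9% and 21.7% at week 3. C4b came to 22% (15.9 to 27.1%) in NLGF and 15.5% (10 to 24.6%) in WT libraries of week 24. C3ar1 came to 1.07% (0.932 to 1.19%) in NLGF and 0.631% (0.396 to 0.907%) in WT libraries, and here the groups did not overlap. How far the number of microglia enters these results was not tested.

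Other cell types that can express complement did not show calls at week 24. Perivascular macrophage markers summed to 8.18 CPM (6.02 to 11.7) in NLGF and 8.66 CPM (6.07 to 13.4) in WT libraries, with 0 of 5 tested markers called. Monocyte and neutrophil markers summed to 0.482 CPM in NLGF and 0.301 CPM in WT libraries. None of their 7 passed the filter, and the median count was 0 for 1 of the 7 in NLGF and 2 of the 7 in WT libraries. Astrocyte markers summed to 7220 CPM in NLGF and 7340 CPM in WT libraries, with 0 of 8 called. Endothelial markers summed to 157 CPM in NLGF and 163 CPM in WT libraries, with 0 of 6 called. Other sums were uneven between libraries, with fibroblast markers at 183 CPM (72.6 to 533) in NLGF and 144 CPM (54.6 to 347) in WT libraries and choroid plexus markers at 2240 CPM (46.2 to 10700) in NLGF and 1400 CPM (30.9 to 5940) in WT libraries. None of the 7 markers of either list was called.

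**Figure D4:**
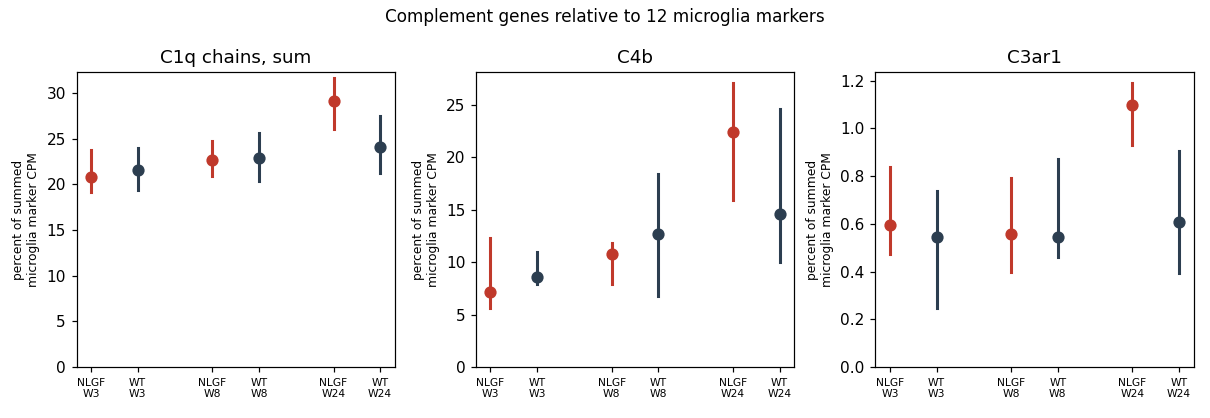
Summed CPM of the 3 C1q genes, and CPM of C4b and C3ar1, as a percent of the summed CPM of 12 microglia markers (y axis, from 0), by genotype and week. Points are medians and lines the lowest to highest of 10 libraries. At week 24 the C3ar1 ranges of NLGF and WT do not overlap, while those of the C1q sum and C4b do.

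The genes most like each of the 9 were sought over the 53 libraries outside the 7 deep ones, by the Pearson correlation of log2 CPM among 14498 genes. These libraries share genotype and age differences, so the values describe likeness only. Trem2, a microglial lipid receptor, Tyrobp, its adaptor, and Laptm5, a lysosomal membrane protein, led for C1qa (0.91 for Trem2 and Laptm5, 0.88 for Tyrobp) and C1qb (0.92, 0.91 and 0.90 for Trem2, Tyrobp and Laptm5). C1qc was nearest to Laptm5 (0.93), Trem2 (0.90) and the lysosomal protein gene Cd68 (0.90). C4b was nearest to Zc3hav1 (0.86), an antiviral zinc finger gene, Trem2 (0.85) and the protease gene Ctss (0.83). C3ar1 was nearest to Lyz2 (0.88), Cd180 (0.86) and Csf3r (0.84), which are expressed in myeloid cells. The likeness was weaker for C5ar1, led by Man2b1 (0.64), Lpcat2 (0.63) and Fcgr3 (0.61), and for C3, led by Cd74 (0.71), Spef2 (0.68) and Dtx3l (0.66). Serping1 was nearest to Bgn (0.79), Islr (0.79) and Colec12 (0.77), and Cd59a to Steap2 (0.89), Pon3 (0.87) and Cab39l (0.87).

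Within groups the C1q genes, C4b and C3ar1 correlated less closely than by level, where differences between genotypes and weeks also enter. Taking each library's deviation from the mean of its genotype, week and sex, C1qa correlated with C1qb at 0.79 and with C1qc at 0.63, and C1qb with C1qc at 0.58, over 53 libraries. For levels these values were 0.95, 0.90 and 0.90. C3ar1 correlated with the C1q genes at 0.10 to 0.29 by deviations, against 0.78 to 0.86 for levels, and C4b at 0.26 to 0.38, against 0.81 to 0.86. The C1q genes followed the microglia marker sum, at 0.66, 0.71 and 0.64 for C1qa, C1qb and C1qc, and C4b (0.34) and C3ar1 (0.27) did so less. C4b had larger values with the macrophage (0.46), hippocampal neuron (0.40), endothelial (0.38) and fibroblast (0.35) sums. C3ar1 had larger values with the endothelial (0.43) and astrocyte (0.36) sums, and its lowest with the hippocampal neuron sum (-0.38). Cd59a followed the choroid plexus (0.77) and fibroblast (0.70) sums, and Serping1 the endothelial (0.69), macrophage (0.67) and fibroblast (0.60) sums. In this measure, chosen after its values were seen, the genes nearest to C3 were Dnah6 (0.73), Foxj1 (0.70) and Hydin (0.70), which belong to motile cilia. Those nearest to C4b were Trim56 (0.73), Gfap (0.73), Mdk (0.73), Tnxb (0.72) and Nwd1 (0.71). Gfap is the filament gene of reactive astrocytes, while the astrocyte marker sum correlated with C4b at 0.24.

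At weeks 8 and 24 the libraries with the most Cd59a were those with the most choroid plexus RNA. At week 24, NLGF female 3 had 21 CPM of Cd59a and 10700 CPM of choroid plexus markers, and NLGF female 1 had 14.8 and 5360 CPM. In WT libraries of that week, male 4 had 13.3 CPM of Cd59a and 5940 CPM of choroid plexus markers, and female 3 had 10.1 and 3960 CPM. The same order held for the top Cd59a libraries of week 8 in both genotypes, NLGF male 4 at 11.3 CPM and WT female 3 at 12 CPM, each with the most choroid plexus RNA of its set. It did not hold in WT mice at week 3. Serping1 also peaked in NLGF female 3 (12.4 CPM) and WT male 4 (8.72 CPM) at week 24, which held the most fibroblast and choroid plexus marker RNA of their sets. The part of choroid plexus or meningeal RNA in these values was not tested.

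**Figure D5:**
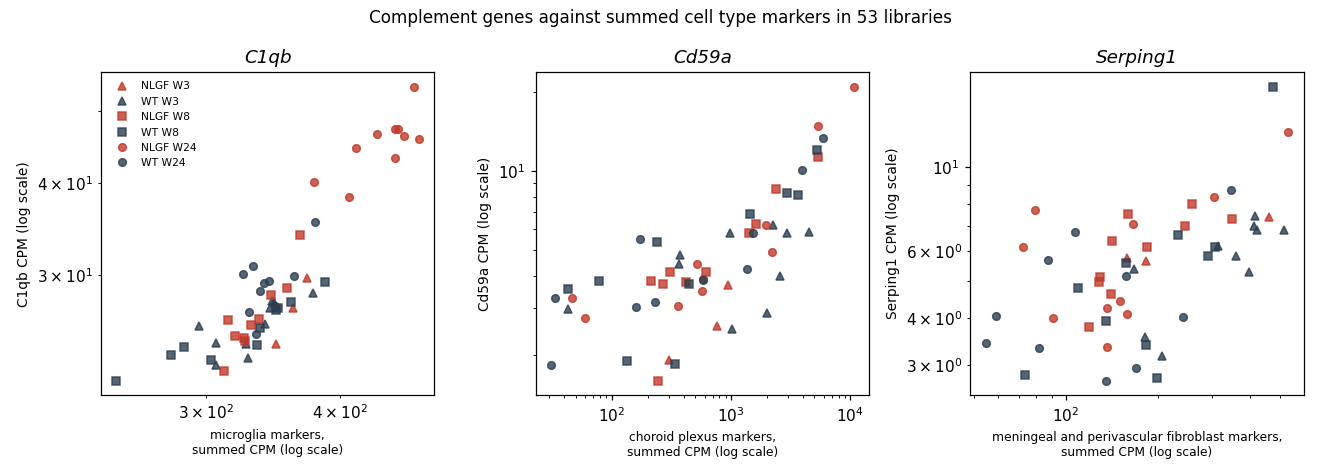
CPM of C1qb, Cd59a and Serping1 (log y axes) against the summed CPM of microglia, choroid plexus and fibroblast markers (log x axes) in 53 libraries, coloured by genotype and shaped by week. C1qb rises with the microglia sum and its NLGF week 24 libraries lie at the upper right, and Cd59a rises with the choroid plexus sum in both genotypes.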

How the data were processed

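RNA of 60 hippocampus samples was measured by RNA-seq of total RNA after ribosomal RNA depletion, per the labels' protocols. The authors deposited raw counts per gene symbol, 1 column per sample. A second deposited table lists the genes the authors called at each week. Per the file headers, its columns are a base mean (a signal of normalized counts), a log2 fold change with its standard error, and an unadjusted and an adjusted p-value. The submitters' processing notes name FastQC, STAR, edgeR, DESeq2 and mm10. The read counter, its strand setting and the annotation used were not given in the sources used here.

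From the counts, genes were filtered with filterByExpr (minimum count 10), TMM-scaled and compared by edgeR 4.0.16 (R 4.3.3) with its robust quasi-likelihood F-test, 2-sided. The p-values were adjusted over the whole table by Benjamini-Hochberg, and 0.05 was the threshold. The SE was taken from the fold change and F. Genotypes were compared within each week with sex as covariate. Differences between weeks and the sex effect were fitted over all 60 samples, change with age over the 30 WT or the 20 NLGF samples of weeks 8 and 24. Levels are CPM on TMM-scaled totals, given as mean ± SD. RPKM divide by the exon length of GENCODE vM21 on mm10. Correlations used log2 CPM with a prior count of 2 over genes averaging 1 CPM or more.

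Alternatives were RLE scaling, DESeq2 1.42.0, no filter on low counts, at least 1 CPM in at least 10 samples, no sex term, a block for sex and replicate number, all samples in 1 fit, each sex alone, voom of limma 3.58.1 with sample weights, each library left out, and fits without the deep or the conflicting libraries. Fits were tested on simulated data. No libraries were duplicates: the smallest chi-square per gene between 2 libraries of a group was 6.59. Genes named outside the 9 are called members of the complement lists, the 3 uncalled with the smallest p-value at week 24, and the 3 most correlated with each of the 9. A few results under this rule are not reported here. The genes, the lists and the comparisons were chosen with earlier results of these data known.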

Additional observations from a re-analysis of the deposited data

Results flagged for a closer look

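Of 54 sets of 10 libraries (9 genes, each genotype and week), 7 held a library far from the others, where chance gives about 1 in 20. NLGF week 3 male 1, which is not a deep library, stood highest of its set in 3 genes: C1qa at 33.6 CPM (next 24.5 CPM), C1qb at 29.7 CPM (next 27 CPM) and C4b at 45.9 CPM (next 31.1 CPM). Its microglia marker sum was 372 CPM, within the range of its set. In WT libraries, C1qa reached 36.4 CPM in week 24 female 4 (next 27.7 CPM), which also had the highest microglia marker sum of its set at 379 CPM. C4b reached 71.1 CPM in WT week 8 female 1 (next 42.4 CPM), again with the highest microglia marker sum of its set at 387 CPM. The hippocampal neuron marker sum was also the highest of its set in WT week 24 female 4 (3444 CPM) and in WT week 8 female 1 (4193 CPM). Serping1 reached 16.3 CPM in WT week 8 female 3 (next 6.63 CPM). This library had the highest sums of its set for choroid plexus (5210 CPM), fibroblast (475 CPM), endothelial (211 CPM) and perivascular macrophage markers (20 CPM). C5ar1 reached 1.22 CPM in NLGF week 8 female 4 (next 0.762 CPM).

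The genotype effect differed between weeks, by a test of the difference itself, in 5 genes. From week 8 to week 24 the log2 effect was larger by 0.54 for C1qa, 0.56 for C1qb, 0.65 for C1qc, 1.03 for C4b and 1.08 for C3ar1. From week 3 to week 24 it was larger by 0.55 for C1qa, 0.61 for C1qb, 0.55 for C1qc, 0.99 for C4b and 0.85 for C3ar1. Without the deep libraries of week 3, in a fit with fewer samples, only C1qb of these was still called against week 3.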

How the results depend on the processing

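At week 24 the 5 called genes were called in each of the 20 fits that left out a library, with the largest adjusted p at 0.00954 for C4b, and under every other setting except males only. There 3 were called, without C4b (0.96, adjusted p = 0.614) and C3ar1 (1.04, adjusted p = 0.0546), and Cd59a turned to -0.52. Leaving out each library gave Cd59a -0.10 to 0.55. With replicate number as a block 6 genes were called, C3 being added (1.18, adjusted p = 0.0258). The labels do not say that a number marks a shared animal or batch, and the deviations of same-numbered libraries correlated above 0.1 in 3 of 10 pairs at weeks 3 and 8 and in 7 of 10 at week 24 (-0.06 to 0.43). The block changed no other call of the 9 genes, and with it 165 of all genes were called at week 3 (628 without it) and 145 at week 24 (145 without it). DESeq2 called 1486 of all genes at week 3 and 224 at week 24, and each sex alone 37 (males) and 44 (females) at week 24. For week 24 against week 8 all settings called 5, and those without the deep libraries or the library of conflicting sex were chosen after seeing the data. Against week 3, 1 was called without the 7 deep libraries (C1qb), in a fit with fewer samples, where C1qa was at 0.40 (adjusted p = 0.292), C1qc at 0.63 (0.0682), C4b at 0.72 (0.306) and C3ar1 at 1.14 (0.0616). All genes called there fell to 15, against 204. At week 3, deep libraries alone gave 1 call (C4b -0.24, adjusted p = 0.0428). Without them C4b was 0.16, C3ar1 -0.01 and Cd59a -0.66, and all genes called were 0, against 628. That fit held 3 NLGF libraries, among them male 1 with 45.9 CPM of C4b. In WT mice, leaving out each library gave 0 to 1 calls for week 8 over week 3 and 0 to 1 for week 24 over week 8, C4b each time (0.46 and 0.59). In NLGF mice C3 passed without week 8 male 4 (1.37, adjusted p = 0.049) and with DESeq2, which called 7. With at least 1 CPM in at least 10 libraries 5 were called there, since C5ar1 did not pass that filter and was not tested. Among the single-gene fold changes printed in the results, 1496 values kept direction and side of the threshold, 6 lost the call, 6 gained it and 5 changed sign. Fold changes near 0 that were not printed also changed sign when a library was left out, such as C1qa at week 3 (-0.03 to 0.06). Causes of these changes were not tested.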
